A study of Mus musculus with 7 samples.

Results

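The Notch genes described here are 10 genes of the deposited count table, which lists 13280 genes. They are the receptors Notch1, Notch2 and Notch3, the ligands Jag1 and Dll1, the nuclear effector Rbpj, the target genes Hes1, Hey1 and Heyl, and Numb, an antagonist of the receptors. They were chosen by their symbols, and all 10 were in the table and had enough reads to be tested. All are protein-coding genes, and the positions below span the whole gene, introns included. On GRCm38 the receptor genes lie at chr2:26457903-26516663 (Notch1, minus strand), chr3:98013527-98150361 (Notch2, plus strand) and chr17:32120820-32166852 (Notch3, minus strand), and the ligand genes at chr2:137081456-137116644 (Jag1, minus strand) and chr17:15367354-15376872 (Dll1, minus strand). The target genes lie at chr16:30064384-30067796 (Hes1, plus strand), chr3:8663359-8667256 (Hey1, minus strand) and chr4:123233556-123249875 (Heyl, plus strand). Rbpj lies at chr5:53466152-53657362 on the plus strand and Numb at chr12:83794034-83921934 on the minus strand.

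MuSCs, the resident stem cells of skeletal muscle, were sorted from digested hindlimb muscle of adult Gli1-CreERT2; R26-tdT mice 3 days after tamoxifen (TAM). The Gli1 locus drives a Cre recombinase that needs tamoxifen to work and that turns on tdT, a red fluorescent protein, so that tdT+ cells were collected as Gli1+ MuSCs (4 libraries) and tdT- cells as Gli1- MuSCs (3 libraries). Both groups carry both alleles and received TAM, and the gate for both was CD45-CD31-Sca1-VCAM1+, in uninjured muscle. The comparison asks how the transcripts of these 2 MuSC populations differ. The Gli1-CreERT2 allele disrupts 1 copy of Gli1 in all of these mice, and a cell that switched Gli1 on after TAM counts as Gli1-. The labels give the strain as C57BL/6, while the study's methods describe a mixed C57BL6/129 background and the use of both sexes. No source used here states how many mice stand behind each library, so the p-values below measure the spread between these libraries.

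Notch signalling runs between touching cells. A ligand of the Delta or Jagged family on one cell binds a Notch receptor on its neighbour, the receptor is cleaved, and its intracellular part enters the nucleus and joins RBPJ to switch on genes of the Hes and Hey families. In resting MuSCs the pathway is known to be active and to be needed for quiescence, and HeyL and Hey1 are known to act there against myogenic differentiation.

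Each library was made from 1 ng of total RNA. Reads on genes numbered 10595181 to 13781283 in the Gli1+ libraries and 12808512 to 19662721 in the Gli1- libraries. Reads fell on 8579 to 10016 genes in the Gli1+ libraries and on 10829, 5471 and 6834 genes in Gli1- replicates 1, 2 and 3, so Gli1- replicates 2 and 3 stood apart from the rest by the number of genes they detected. Gli1 itself had 50.3, 30.7, 7.28 and 18.3 counts-per-million (CPM, scaled between libraries by edgeR's TMM method) in the Gli1+ libraries, against 11.6, 0 and 0 CPM in the Gli1- libraries. All 12 markers listed for MuSCs, Pax7 and Myf5 among them, had reads in every library, with summed levels of 5526 to 7527 CPM in Gli1+ and 5916 to 8009 CPM in Gli1- MuSCs. Markers of 6 other cell types (endothelial, pericyte and smooth muscle, FAP (fibro-adipogenic progenitor) and fibroblast, tenocyte, immune, Schwann and glial) numbered 23 to 42 of 46 with reads in the Gli1+ and 23 to 30 of 46 in the Gli1- libraries, and each of the 6 lists had a read in every library but for Schwann and glial markers, which had none in Gli1+ replicate 1. Their summed levels were 2011, 3109, 10906 and 10554 CPM in Gli1+ replicates 1 to 4, against 1838, 6752 and 3730 CPM in Gli1- replicates 1 to 3. The 8 immune markers in the table summed to 0.185, 7.65, 247 and 201 CPM in the Gli1+ libraries, against 20.02, 197 and 62.7 CPM in the Gli1- libraries. Of these, Ptprc, the gene of CD45, was at 0 in all libraries but Gli1+ replicate 3 (8.91 CPM). Cd68 and Csf1r were also read only there (7.28 and 20.7 CPM). C1qa and C1qb were read only in Gli1+ libraries (up to 86.1 and 39.9 CPM), and S100a9 only in Gli1- libraries (up to 64.1 CPM). S100a8 had 65.8 and 62.7 CPM in Gli1- replicates 2 and 3, against at most 0.185 CPM in the Gli1+ libraries. Lyz2 was read in both groups, with 151 CPM in Gli1+ replicate 4 and 67.2 CPM in Gli1- replicate 2. Pecam1, the gene of CD31, had 6.11, 4.51, 334 and 77.9 CPM in the Gli1+ libraries, against 18.6, 434 and 169 CPM in the Gli1- libraries. The 9 FAP and fibroblast markers summed to 1323, 2253, 5163 and 7626 CPM in the Gli1+ libraries, against 1273, 3035 and 2193 CPM in the Gli1- libraries. Of these, Pdgfra, which defines FAPs, had 0, 9.10, 42.9 and 0 CPM in the Gli1+ libraries, against 0, 22.3 and 0 CPM in the Gli1- libraries, while Gli1+ replicate 4 had 4131 CPM of Col3a1 and 1666 CPM of Col1a1. Ly6a, the gene of Sca1 and also among the 9, had 17.1, 13.3, 165 and 51.7 CPM in the Gli1+ libraries. In the Gli1- libraries Ly6a had 14.6, 299 and 80.2 CPM, and its highest library was thus Gli1- replicate 2. Col3a1 alone gave 996 of the 2011 CPM of other-cell markers in Gli1+ replicate 1 and 1182 of the 1838 CPM in Gli1- replicate 1. Col1a1 had 25.2 and 12.1 CPM in these 2 libraries, so much of their sum was 1 gene. In RNA from bulk samples, fewer cells of a type and less RNA per cell cannot be told apart.

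No Notch gene differed between the groups beyond the spread between libraries. In edgeR's quasi-likelihood test over the 11134 genes that reached 5 reads in 2 or more libraries, 0 of the 10 had a Benjamini-Hochberg adjusted p under 0.05, and each had an adjusted p of 1.00. The background is the same, since 0 of the 11134 genes (0%) were called in either direction. Gli1, whose locus drives the label used for sorting, was therefore not called either. Its log2 fold change was 2.78 (SE 2.44, unadjusted p = 0.322 in edgeR), so the absence of a call is weak evidence of equal levels. None of the 10 reached an unadjusted p under 0.05 (2.14% of all genes did), and the groups overlapped for all 10 (they did not overlap for 3.81% of all genes, 2.87% higher and 0.934% lower in Gli1+ MuSCs). DESeq2 called 0 of the 10 (0.593% of all genes) and gave 0 of them an unadjusted p under 0.05 (4.57% of all genes), with no p for Hey1. limma-voom also called 0 of the 10 (0% of all genes). The fitted log2 fold change of Gli1+ over Gli1- MuSCs was above 0 for 9 genes and below 0 for 1, with a median of 0.18. Over all genes tested, 65.3% were above 0 and the median was 0.30. With library totals in place of TMM, 7 of the 10 were above 0. Without Gli1- replicate 1, 1 of the 10 (Hey1) was called and 8 were above 0, in a fit in which 2 genes were called and 1257 genes had an unadjusted p under 0.05. Without Gli1- replicate 2 and without Gli1- replicate 3, in turn, 0 of the 10 were called either time, and 6 and 9 of the 10 were above 0.

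**Figure D1:**
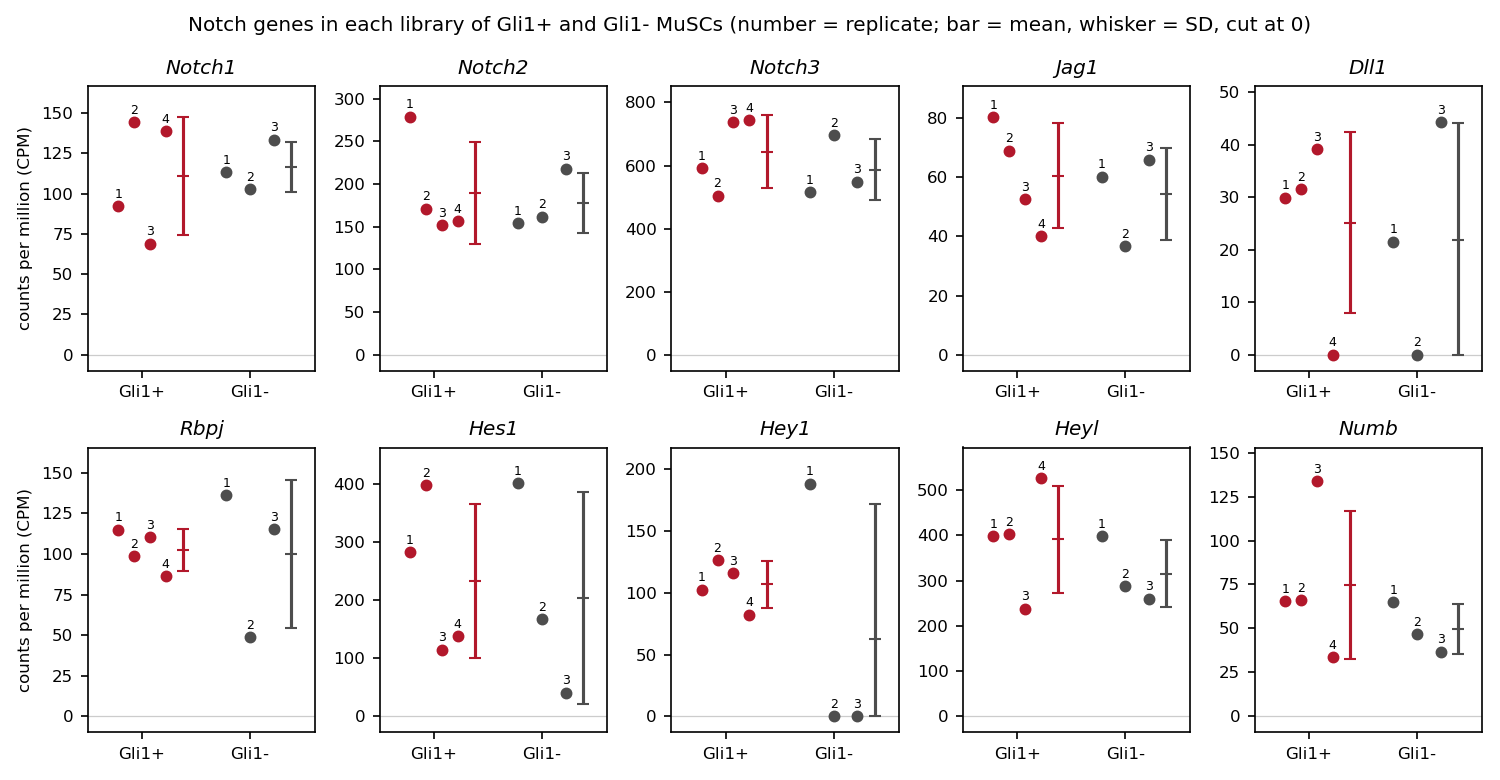
Level of each Notch gene (vertical axes, CPM) in the 4 Gli1+ libraries (red, left) and the 3 Gli1- libraries (grey, right); numbers are replicates, the bar is the group mean and the whisker its SD, drawn no lower than 0. The groups overlap in every panel, and Hey1 and Dll1 are the 2 genes with libraries at 0.

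Of the receptors, Notch3 was the steadiest across libraries. It had 591, 505, 738 and 744 CPM in Gli1+ MuSCs, against 515, 696 and 548 CPM in Gli1- MuSCs. The highest of the 7 libraries was 1.47 times the lowest, and all 3 Gli1- libraries lay inside the Gli1+ range. Its log2 fold change was 0.14 (SE 0.30, 95% interval -0.52 to 0.79). In muscle Notch3 is known to be high in quiescent MuSCs and in the mural cells of blood vessels. Pericyte and smooth muscle markers summed to 473, 640, 2703 and 1124 CPM in Gli1+ MuSCs, against 359, 1536 and 801 CPM in Gli1- MuSCs. Gli1+ replicates 3 and 4 and Gli1- replicate 2 were thus the highest both in these markers and in Notch3. Whether mural cells have a part in the Notch3 level, or in its share of the receptors below, was not tested.

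Notch2 had 279, 171, 152 and 157 CPM in Gli1+ MuSCs, against 154, 162 and 218 CPM in Gli1- MuSCs. Gli1+ replicate 1 was the highest, and the other 3 Gli1+ libraries lay within or just below the Gli1- range. This gave a log2 fold change of 0.091 (SE 0.34, 95% interval -0.64 to 0.82), and without Gli1+ replicate 1 it was -0.15. Notch2 acts beside Notch1 in keeping mouse MuSCs quiescent.

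Notch1 had 92.2, 144, 68.9 and 139 CPM in Gli1+ MuSCs, against 113, 103 and 133 CPM in Gli1- MuSCs. It was the only one of the 10 with a fitted difference below 0, at a log2 fold change of -0.069 (SE 0.38, 95% interval -0.89 to 0.76). All 3 Gli1- libraries lay inside the Gli1+ range. Exons of Notch1, Notch2 and Notch3 overlap other annotated genes over 10.4%, 5.02% and 6.03% of their bases, on the opposite strand for Notch1 and Notch3 and on the same strand for Notch2, and no source used here states if the counting used strand.

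Set against transcript length, Notch3 made up most of the receptor signal in all 7 libraries. Levels between genes were compared as CPM divided by the length in kb of the longest coding transcript of the gene. Of the summed CPM per kb of the 3 receptors, Notch3 made up 67.0%, 66.6%, 80.9% and 75.8% in Gli1+ MuSCs, against 70.7%, 76.8% and 66.3% in Gli1- MuSCs. Notch2 followed with 12.2% to 24.1% in Gli1+ MuSCs and 13.6% to 20.1% in Gli1- MuSCs. Notch1 was below Notch2 in 7 of 7 libraries.

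The ligands were the lowest of the 10 genes per kb of transcript. Jag1, which MuSCs and their neighbours can present to Notch receptors, had 80.4, 69.0, 52.6 and 40.1 CPM in Gli1+ MuSCs, against 60.2, 36.8 and 65.9 CPM in Gli1- MuSCs. The Gli1+ libraries spanned nearly the whole Gli1- range and reached above it. The log2 fold change of Jag1 was 0.16 (SE 0.63, 95% interval -1.21 to 1.52).

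Dll1, the Delta-like ligand best known from activated and differentiating myogenic cells, was read in 3 of 4 Gli1+ and 2 of 3 Gli1- libraries. It had 29.9, 31.5, 39.1 and 0 CPM in Gli1+ MuSCs, against 21.5, 0 and 44.3 CPM in Gli1- MuSCs. Where it was read at all it had at least 323 reads, and the other libraries had none. The difference was therefore imprecise, at a log2 fold change of 0.20 (SE 2.31, 95% interval -4.82 to 5.21). An absence of reads at this level was common in Gli1- replicate 2, which held no read of 55.0% of the 2771 genes within 1.5 times of the mean of Dll1 elsewhere. In Gli1+ replicate 4 it was less common, at 7.62% of 2769 such genes. In addition, 20.5% of the exonic bases of Dll1 overlap a non-coding gene on the other strand.

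Rbpj, the DNA-binding partner through which cleaved Notch receptors act, was level across the Gli1+ libraries and varied more in Gli1- MuSCs. It had 115, 98.8, 110 and 86.2 CPM in Gli1+ MuSCs, against 136, 48.6 and 115 CPM in Gli1- MuSCs. The SD was 12.9 CPM in Gli1+ MuSCs (n = 4) and 45.7 CPM in Gli1- MuSCs (n = 3), and the Gli1- libraries lay on both sides of all 4 Gli1+ libraries. The log2 fold change was 0.037 (SE 0.42, 95% interval -0.86 to 0.94). The lowest value was that of Gli1- replicate 2, and without this library the log2 fold change was -0.29. Of the 31-base stretches of Rbpj transcripts, 11.8% are shared with other annotated genes, a processed pseudogene of Rbpj among them. No source used here states how reads on such stretches were counted, so their effect on the Rbpj count is not known.

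The target genes varied in different ways from library to library. Heyl was read in all 7 libraries, with 399, 402, 238 and 526 CPM in Gli1+ MuSCs, against 399, 287 and 260 CPM in Gli1- MuSCs. The lowest and the highest libraries were both Gli1+. Between the groups the log2 fold change was 0.31 (SE 0.34, 95% interval -0.42 to 1.04). Heyl encodes a bHLH repressor that in mouse MuSCs acts with Hes1 against Myod1.

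Hes1, the classical Notch target and itself a bHLH repressor, was the least even of the 8 genes read in all libraries. It had 282, 398, 115 and 138 CPM in Gli1+ MuSCs, against 402, 168 and 40.9 CPM in Gli1- MuSCs. The highest library was 3.47 times the lowest within Gli1+ MuSCs and 9.81 times the lowest within Gli1- MuSCs, and the log2 fold change between the groups was 0.20 (SE 0.71, 95% interval -1.42 to 1.81). The SD of its log2 level over the 7 libraries was 1.17. Only 5.62% of 516 genes of like abundance (within 1.5 times) had a larger one, and their median SD was 0.49. Notch3 stood at the other end, with an SD of 0.24 that 89.6% of 135 genes of like abundance exceeded. Both comparisons drew on 3697 of the 11134 genes tested. Hey1 and Dll1, which had libraries without a read, were not among the genes compared.

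The 3 libraries with at least 282 CPM of Hes1 were Gli1+ replicates 1 and 2 and Gli1- replicate 1. These 3 libraries were also the lowest in summed markers of other cell types. The 12 MuSC markers summed to 7527, 6622, 5526 and 6913 CPM in the Gli1+ libraries, against 8009, 5916 and 6871 CPM in the Gli1- libraries. Gli1- replicate 3, with the lowest Hes1, had the next lowest sum of other-cell markers. Whether these measures have a part in the Hes1 level was not tested. Without the library of each group that was highest in those markers (Gli1+ replicate 3 and Gli1- replicate 2), a choice made after the data were seen, 0 of the 10 Notch genes and 0 of 10762 genes were called, and 95 genes had an unadjusted p under 0.05.

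**Figure D2:**
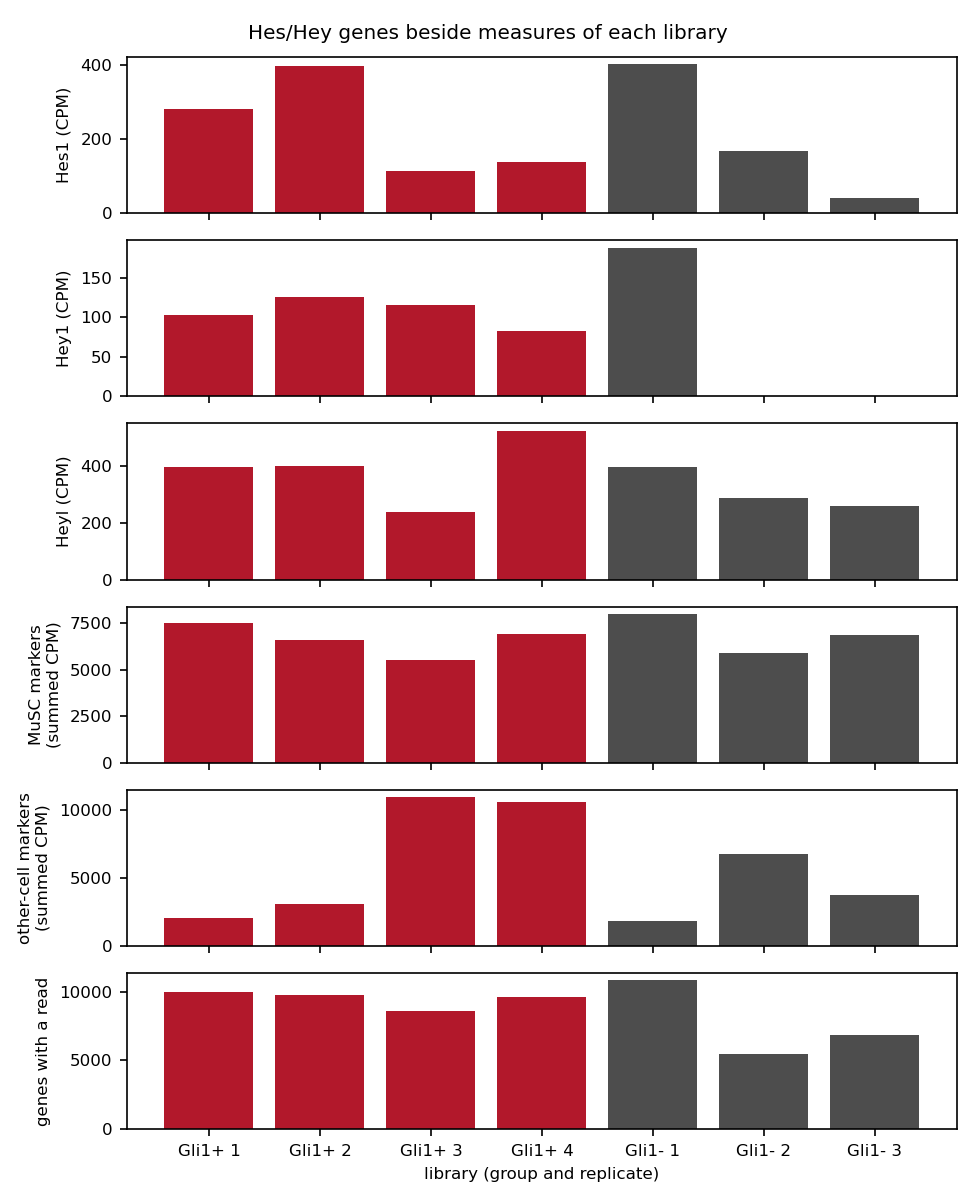
Bars give, for each library (Gli1+ in red, then Gli1- in grey), the levels of Hes1, Hey1 and Heyl in CPM, the summed CPM of 12 MuSC markers and of 46 markers of other cell types, and how many genes had a read. Hes1 is at 282 CPM or more in the 3 libraries with the lowest sums of other-cell markers, while Hey1 is at 0 in Gli1- replicates 2 and 3, the 2 libraries with the fewest genes detected.

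Hey1, the third target, had the largest fitted difference of the 10 with all libraries in the fit, and the least certain one. It had 102, 126, 116 and 82.3 CPM in Gli1+ MuSCs, against 188, 0 and 0 CPM in Gli1- MuSCs. These values stand for 1106, 1735, 1272 and 817 reads in Gli1+ MuSCs, against 3481, 0 and 0 reads in Gli1- MuSCs. The highest value and both zeros were Gli1- libraries, so all 4 Gli1+ libraries lay between them. Its log2 fold change was 0.76 (SE 2.38, 95% interval -5.10 to 6.63). Without Gli1- replicate 2 or without Gli1- replicate 3 it was 0.18, below that of Numb in the same fits (0.55 and 0.42).

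The zeros of Hey1 were set beside genes of like level. Of 1202 genes within 1.5 times of the Hey1 mean in the other 5 libraries and with at least 5 reads in each of them, 102 (8.49%) had no read in Gli1- replicate 2, 16 (1.33%) had none in Gli1- replicate 3, and 6 (0.499%) had none in both. The 6 genes, named here after their values were seen, were Dtx3, Matn2, Nppc, Prpf4b, Ret and Stat5b, of which Dtx3 encodes a Deltex family ubiquitin ligase linked to Notch. The call for Hey1 rested on 1 library. Without Gli1- replicate 1, when both remaining Gli1- libraries held no read, the adjusted p of Hey1 in edgeR was 0.0289. It was 0.66 to 1.00 under every other alternative that gave one. Hey1 was 1 of 2 genes called of 10556 in the fit without Gli1- replicate 1 (0.0189%), in which 11.9% of genes had an unadjusted p under 0.05. limma-voom with quality weights gave Hey1 a log2 fold change of 8.28 with an adjusted p of 0.66. Hey1 was the 1 of the 10 genes with an unadjusted p under 0.05 by that tool, as were 7.28% of all genes.

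Numb, which antagonises Notch by directing receptors to endocytosis and is known for its uneven inheritance at MuSC division, had 65.4, 66.0, 134 and 33.7 CPM in Gli1+ MuSCs, against 65.0, 46.8 and 36.9 CPM in Gli1- MuSCs. Gli1+ replicate 3 held about as much again as the next library, and the lowest library was also Gli1+. The log2 fold change was 0.59 (SE 0.61, 95% interval -0.74 to 1.92), and without Gli1+ replicate 3 it was 0.15.

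**Figure D3:**
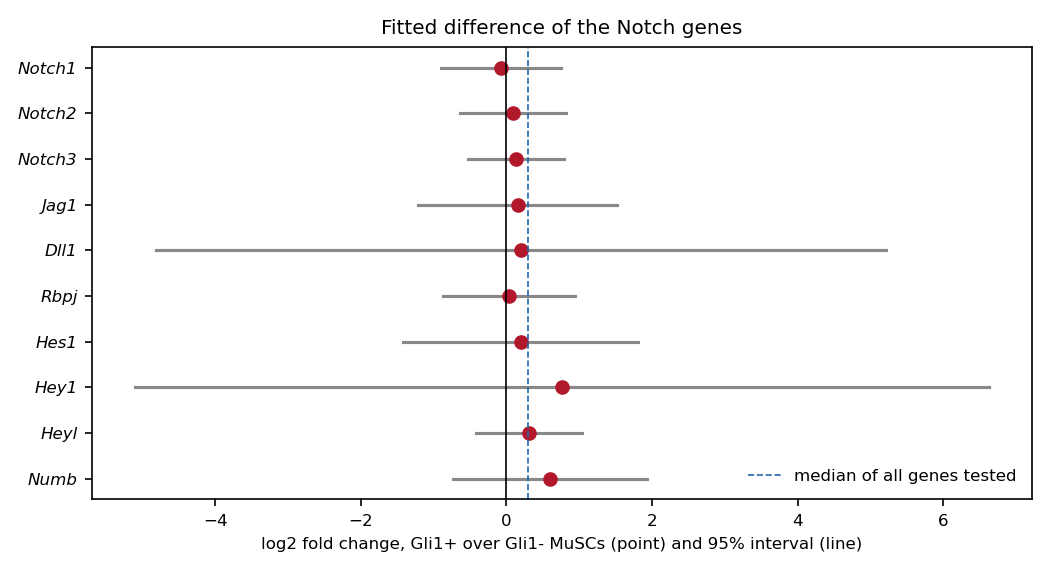
Fitted log2 fold change of Gli1+ over Gli1- MuSCs (points) with its 95% interval (lines) for the 10 Notch genes; the dashed line is the median of all genes tested, 0.30. Every interval crosses 0, and those of Dll1 and Hey1 are the widest.

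Per kb of transcript, the order of the 10 genes over all 7 libraries ran from Hes1 (150 ± 96.8 CPM per kb) over Heyl (79.0 ± 22.5), Notch3 (77.3 ± 13.0), Hey1 (36.3 ± 28.2), Rbpj (18.5 ± 5.10), Numb (18.03 ± 9.52), Notch2 (17.6 ± 4.51), Notch1 (12.0 ± 2.90) and Jag1 (10.3 ± 2.81) to Dll1 (6.64 ± 4.96; SD, n = 7). Most neighbours in this order were not apart beyond the spread between libraries. Hes1 was above Heyl in 5 of 7 libraries, Heyl above Notch3 in 4, Rbpj above Numb in 4 and Numb above Notch2 in 3. The clearest steps were those at which Notch3 was above Hey1 (6 of 7 libraries) and Notch2 above Notch1 (7 of 7). A gene read through another transcript than its longest would move in this order.

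**Figure D4:**
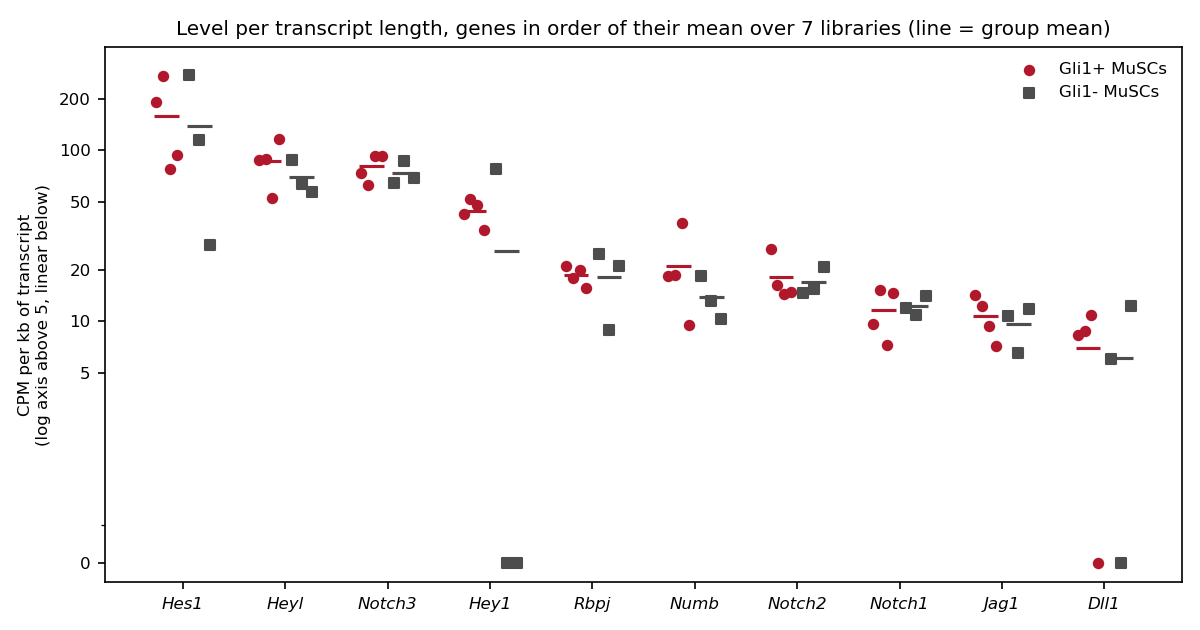
Level of each gene per kb of its longest coding transcript (vertical axis, CPM per kb, log scale above 5 and linear below) in Gli1+ (red circles, left) and Gli1- libraries (grey squares, right); lines are group means and genes run in the order of their mean over 7 libraries. Hes1 spreads the most among genes without a zero, and Notch3 the least.

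Receptors together had 94.5 to 122 CPM per kb in Gli1+ MuSCs and 90.9 to 113 CPM per kb in Gli1- MuSCs. The 2 ligands together had 22.7, 21.1, 20.3 and 7.14 CPM per kb in Gli1+ MuSCs, against 16.7, 6.55 and 24.1 CPM per kb in Gli1- MuSCs. The receptor sum was therefore 4.48 to 5.61 times the ligand sum in the Gli1+ libraries that read Dll1 and 17.1 times in the one that did not, against 4.28 and 5.43 times in the Gli1- libraries that read Dll1 and 17.3 times in the one that did not. The 3 targets summed to 178 to 412 CPM per kb in Gli1+ MuSCs and 85.2 to 439 CPM per kb in Gli1- MuSCs. Among these targets, the share of Hes1 was 38.6% to 65.8% in Gli1+ MuSCs and 32.7% to 64.4% in Gli1- MuSCs.

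For Notch genes read in all libraries, the gene whose log2 ratio to it varied least over the 7 libraries was sought among 3694 genes that reached 5 reads in all of them. The SD of the log2 ratio was 0.11 for Notch3 with Tmbim6, 0.13 for Jag1 with Ttc3, 0.14 for Notch2 with Igf2r and 0.15 for Numb with Washc2. It was 0.16 for Notch1 with Ube3b, 0.18 for Rbpj with Mef2d and 0.25 for Hes1 with Dot1l. All 7 points of each pair share their libraries, so these values describe likeness of level only. Within the 10 genes the pairs that were most alike were Notch2 and Jag1 (SD of the log2 ratio 0.31) and Rbpj and Jag1 (0.32). Hes1 was the least like each of the other 7.

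Of 66 further genes of the pathway, 59 were in the table and 54 were tested. With reads were 47 to 52 of the 59 in the Gli1+ libraries, against 53, 32 and 39 in Gli1- replicates 1, 2 and 3. In edgeR's test 0 of the 54 had an adjusted p under 0.05, 1 was higher at an unadjusted p under 0.05 (1.53% of all genes were), and 0 were lower (0.611%). The fitted log2 fold change was above 0 for 38 and below 0 for 16 of the 54, with a median of 0.28. The groups did not overlap for 1 of them, which was higher in Gli1+ MuSCs (2.87% of all genes were).

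**Figure D5:**
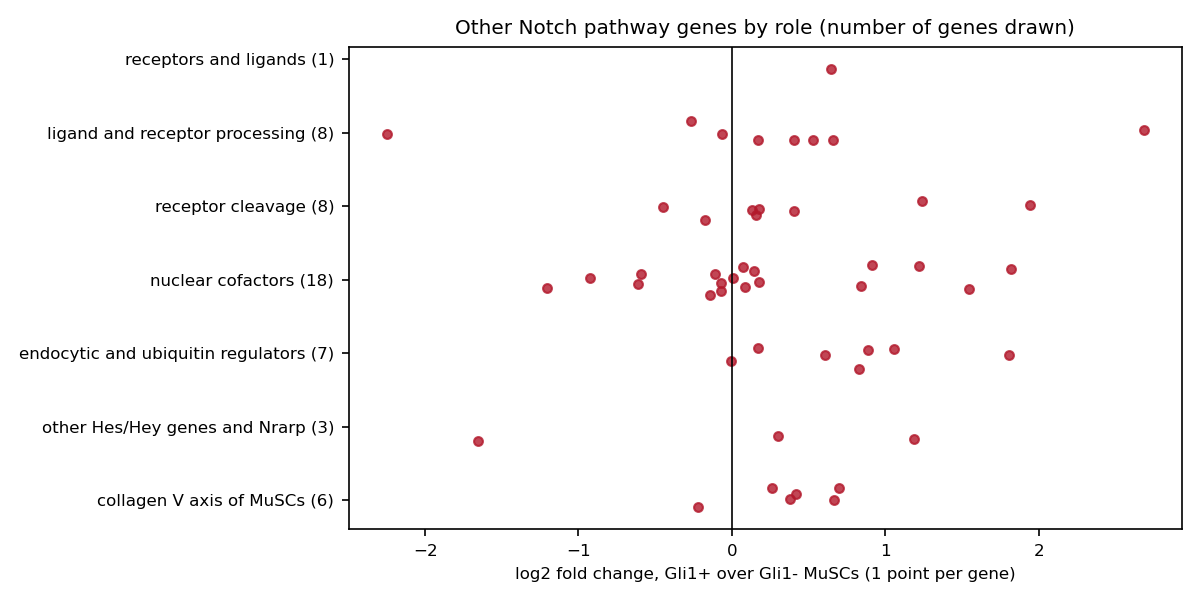
Fitted log2 fold change of Gli1+ over Gli1- MuSCs (horizontal axis) for 51 further Notch pathway genes (1 point each), arranged by role; points are spread vertically for sight only, and 3 tested genes with no read in any Gli1- library are left out. The points of every group with more than 1 gene lie on both sides of 0.

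Among the further receptors and ligands, Dlk1, a non-canonical Delta-like ligand, was the gene with an unadjusted p under 0.05 (adjusted p = 1.00 in edgeR). It had 41.1, 10.5, 0 and 10.9 CPM in Gli1+ MuSCs and was at 0 in all 3 Gli1- libraries. A single read lies above an all-zero group, so this order adds no evidence of a difference. Of the 11134 genes tested, 426 lacked reads throughout the Gli1- group, against 53 throughout the Gli1+ group. Gli1- replicates 2 and 3 were also the libraries with the fewest genes detected, and the fit gave no SE for Dlk1. Jag2 had 37.0, 11.6, 37.9 and 0 CPM in Gli1+ MuSCs, against 6.98, 0.137 and 34.3 CPM in Gli1- MuSCs. The endothelial genes of the pathway, named after their values were seen, were read in few libraries. Notch4 was read only in Gli1+ replicate 3 (23.7 CPM), and Dll4 only in Gli1+ replicates 2 and 3 (1.97 and 34.7 CPM). Gli1+ replicate 3 also had the highest summed endothelial markers of all libraries (1304 CPM). Gli1- replicate 2 had the next highest sum (1103 CPM) and no read of Notch4 or Dll4. Whether endothelial cells have a part in these reads was not tested.

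Among the genes that modify ligands and receptors, Pofut1, which adds O-fucose to the receptor, was the gene whose groups did not overlap. It had 24.9, 32.8, 33.7 and 48.7 CPM in Gli1+ MuSCs, against 16.3, 0 and 0 CPM in Gli1- MuSCs, a log2 fold change of 2.69 (SE 2.26, unadjusted p = 0.302 and adjusted p = 1.00 in edgeR). As for Hey1, the zeros were those of Gli1- replicates 2 and 3. Mib1, the ubiquitin ligase that lets ligands be endocytosed, had 115, 144, 96.1 and 25.1 CPM in Gli1+ MuSCs, against 105, 0 and 92.4 CPM in Gli1- MuSCs.

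Ncstn, a subunit of the gamma-secretase that cleaves the receptor, had 117, 130, 86.5 and 110 CPM in Gli1+ MuSCs, against 84.7, 117 and 95.8 CPM in Gli1- MuSCs, with a log2 fold change of 0.16 (SE 0.35).

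Of the 18 nuclear cofactors tested, 10 had a fitted difference above 0 and 8 below it. Tle3, a co-repressor that Hes proteins recruit, had 60.6, 88.5, 137 and 169 CPM in Gli1+ MuSCs, against 155, 95.5 and 264 CPM in Gli1- MuSCs. The log2 fold change of Tle3 was -0.59 (SE 0.45). Dtx4, a Deltex ubiquitin ligase, averaged 384 ± 99.1 CPM in Gli1+ MuSCs and 387 ± 82.8 CPM in Gli1- MuSCs (SD, n = 4 and 3), with a log2 fold change of -0.0090 (95% interval -0.71 to 0.69). Dtx1, of the same family, was at 8.52, 2.18, 0.546 and 0 CPM in Gli1+ MuSCs and at 0 in all Gli1- libraries.

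Of the remaining Hes and Hey genes and Nrarp, 3 were tested. Nrarp, a feedback inhibitor that Notch switches on, had 2.04, 4.81, 0 and 25.5 CPM in Gli1+ MuSCs, against 3.08, 54.0 and 19.4 CPM in Gli1- MuSCs. A log2 fold change of -1.66 (SE 2.34) was opposite in sign to those of Hes1, Hey1 and Heyl, and none of these passed the test. Hes6, which in the mouse counteracts Hes1, had 70.4, 19.95, 0 and 13.3 CPM in Gli1+ MuSCs, against 16.6, 17.5 and 0 CPM in Gli1- MuSCs.

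Genes of the collagen V axis were read in all libraries. In the mouse, collagen V made by MuSCs under Notch and RBPJ is known to hold them quiescent through the calcitonin receptor, Calcr. The 6 genes listed with this axis were Col5a1, Col5a2, Col5a3, Calcr, and Col6a1 and Col6a2, which encode collagen VI. All 6 were tested, 5 were above 0 (65.3% of all genes were) and 1 below, and none was called. The log2 fold change was 0.38 (SE 0.42) for Col5a1, 0.42 (SE 0.35) for Col5a2 and -0.22 (SE 0.47) for Col5a3. Col6a1 had the smallest p of the 6, with 293, 401, 648 and 1363 CPM in Gli1+ MuSCs, against 328, 527 and 424 CPM in Gli1- MuSCs, and a log2 fold change of 0.67 (SE 0.47). Its 2 highest libraries, Gli1+ replicates 4 and 3, were also those with the highest summed markers of FAPs and fibroblasts (7626 and 5163 CPM), whose part in the Col6a1 level was not tested.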

How the data were processed

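The authors deposited a table of raw counts per gene for each library, beside columns of normalized values and of their own fold changes and p-values. The 14 columns of normalized values per sample and the authors' comparison were not used. The study's methods name STAR, GRCm38 and tximport, whereas CASAVA and HISAT2 2.0.5 stand in the submitters' processing notes, and no source used here states which made the table. Counts can be split or pooled where genes overlap.

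Counts were fitted in R 4.3.3 with edgeR 4.0.16 (robust quasi-likelihood test, TMM scaling, at least 5 reads in at least 2 libraries, two-sided, Benjamini-Hochberg adjustment over 11134 genes). The biological coefficient of variation was 1.76. Alternatives were other scalings and filters, DESeq2 1.42.0, limma-voom (limma 3.58.1), a non-robust fit, a block for the replicate number, and each library left out. Likeness used log2 CPM with a prior count of 0.5. Coordinates and lengths came from GENCODE M21 (GRCm38).

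The 10 genes, the 66 pathway genes and the markers were chosen with earlier results of these data known. Named pathway genes were those with an unadjusted p under 0.05 and, in each role, the gene with the smallest p and the gene with the highest mean CPM. The collagen V genes, and the genes said to be named after their values were seen, were added outside that choice. Some values that these rules select are not reported here.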

Additional observations from a re-analysis of the deposited data

Results flagged for a closer look

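Notch2 in Gli1+ replicate 1 stood apart from the other Gli1+ libraries, at 279 CPM against 171 CPM in the nearest of them. The gap was 0.848 of the whole range of the 4 libraries, above Dixon's 95% critical value for 4 values. It was the 1 flag among 22 genes examined this way, and chance alone flags about 1 in 20 such groups.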

How the results depend on the processing

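Each of the 10 Notch genes was refitted under 16 alternatives, 160 values in all. Of these, 1 passed the threshold and 18 turned in sign. Notch3, Hey1, Heyl and Numb kept their sign throughout, but not their size. The causes of the changes below were not tested. Over all genes, DESeq2 called 64 higher and 2 lower in Gli1+ MuSCs, none of them a Notch gene, against 0 in the fit reported, and leaving out single libraries called 0 to 2 higher. Leaving out single libraries called 0 to 1 Notch genes, Hey1 without Gli1- replicate 1. The fitted log2 fold change of Hey1 of 13.4 in that fit is set by libraries with no read. With library totals in place of TMM, the log2 fold change was -0.022 for Notch2 and -0.030 for Rbpj. With single libraries left out it ranged from 0.035 to 0.28 for Notch3, 0.13 to 0.51 for Heyl, 0.15 to 0.83 for Numb, 0.18 to 13.4 for Hey1, -0.22 to 0.10 for Notch1, -0.15 to 0.26 for Notch2, -0.059 to 0.32 for Jag1, -0.39 to 1.22 for Dll1, -0.29 to 0.33 for Rbpj, -0.29 to 1.16 for Hes1, -0.054 to 1.07 for Mib1, -0.18 to 0.12 for Dtx4 and -0.035 to 1.64 for Hes6.

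limma-voom turned Jag2 to -0.020 and Dtx4 to 0.15, and gave Hes1 a log2 fold change of 1.09 (SE 0.61). Without Gli1+ replicate 3 and Gli1- replicate 2, chosen after the data were seen, the log2 fold changes were 0.021 for Notch1, -0.68 for Dll1, -0.33 for Rbpj, -0.35 for Jag2, -0.059 for Mib1 and 0.19 for Dtx4.

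Replicate numbers 1 to 3 occur in both groups, and the deviations of same-numbered libraries from their group means correlated at 0.21, -0.093 and 0.069. Gli1- replicates 1 and 3 correlated best with the Gli1+ library of their own number, and Gli1- replicate 2 did not. Gli1+ replicates 2 and 3 correlated best with a Gli1- library of another number. The numbers were therefore not taken to pair the samples, though these correlations cannot show whether both groups came from the same mice. With the replicate number as a block, 0 genes were called, 78 genes against 238 had an unadjusted p under 0.05, and Dtx4 turned to 0.038. In that fit the log2 fold change was 0.76 (SE 0.43) for Hes1, 9.61 (SE 2.88) for Hey1 and 1.74 (SE 2.97) for Dll1. Without the block these were 0.20, 0.76 and 0.20.

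The differences of Dll1 and Hey1 are the least precise, since a library held either at least 323 reads of them or none. Gli1- replicates 2 and 3, with no read of Hey1, held 12808512 and 14724614 reads on 5471 and 6834 genes. Gli1+ replicate 3, with 1272 reads of Hey1, held 10595181 reads on 8579 genes. Whether depth or the number of genes detected has a part in the zeros was not tested. The 95% intervals of the other 8 genes lay between -1.42 and 1.92 on the log2 scale.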
